A study of Mus musculus with 6 samples.

Results

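The 44 genes described here encode the machinery of mitosis, from the kinases that start it to the proteins that part the daughter cells, and they were taken by gene symbol from a table of raw read counts with 49315 genes. All 44 symbols were found and all 44 passed the filter on low counts, which left 18234 genes. The cells were bEND.3, an established mouse brain endothelial cell line, and RNA was sequenced after transfection with an antisense locked nucleic acid oligonucleotide (a GapmeR, which directs RNase H to cut the RNA it pairs with). In the GapmeR group, 4 samples received a GapmeR against the long noncoding RNA Gm39822 at 100 nM, and in the control group 2 samples received a negative control GapmeR at 100 nM. Both groups were given Lipofectamine 2000, so transfection is common to them. A single GapmeR against Gm39822 and a single cell line were used, and the labels do not say whether the samples are separate cultures, so the p-values measure the spread between these samples, which may be technical.

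Cells enter mitosis when cyclin B activates the kinase Cdk1, with Polo-like and Aurora kinases acting beside it. Kinetochores then bind each chromosome to spindle microtubules, the spindle checkpoint holds back the anaphase-promoting complex until every chromosome is attached, and the separation of sister chromatids is followed by cleavage of the cell. Most of these genes are transcribed in the G2 and M phases of the cell cycle, under the transcription factors FOXM1, NF-Y and the MuvB complexes, and several of them, such as Mki67 and Top2a, are in common use as markers of dividing cells. In bulk RNA, a larger share of cells in G2 and M and more of each transcript per cell cannot be told apart.

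Gm39822 had 2, 1, 4 and 2 counts in GapmeR 1 to 4 and 61 and 56 counts in Negative Control 1 and 2, a log2 fold change of -4.82 ± 0.41 (SE). Library totals ran from 30264086 to 37117934 counts in the GapmeR samples and were 29261988 and 34266811 counts in the controls. The members had 190 to 6488 counts in every sample, and their log2 fold changes had SEs of 0.07 to 0.16. Across all genes tested, 4625 (25.4%) were higher and 3643 (20.0%) lower in the GapmeR samples at an adjusted p under 0.05 in edgeR's quasi-likelihood test. With library size as the only scaling the split was 6106 higher and 2135 lower, and the lower calls came to 1930 without Negative Control 2 and to 2262 without Negative Control 1. The 11 endothelial markers checked were read in all samples, with summed levels of 8735 to 9914 CPM (read counts scaled to library size and TMM factor) in the GapmeR samples and 10209 and 10646 CPM in the controls, and 5 of the 11 were called lower and 2 higher.

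The promoters of mitotic genes are known for a pair of short motifs. One is the CHR, a cell cycle genes homology region that MuvB complexes bind, searched here as TTTGAA or TTCGAA on either strand, and the other is the CCAAT box, bound by NF-Y, searched as CCAAT on either strand, with each motif counted whether or not it overlapped the other. In RefSeq, 37 of the 44 members had promoter windows, 40 in all, and the 250 bases before each start were searched. A CHR stood in 45% of the members' windows and in 12.45% of those of all genes tested, and a CCAAT box in 80% against 34.6%. At least 2 CCAAT boxes were found in 52.5% of the members' windows against 12.08%, and a CHR together with a CCAAT box in 42.5% against 4.691%. Over all RefSeq promoter windows the shares were 17.15% for the CHR and 33.85% for the CCAAT box. The median GC content of the 250 bases was 59.6% in the members and 59.2% over the genes tested. A match to these letters describes the sequence and does not show that a factor binds there.

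The 150 bases before the start of 5 members are given 5′ to 3′ on the strand of the gene, from RefSeq on GRCm38.p6, with the motifs in capitals. Ccnb2, Cdc20, Kif11 and Top2a are shown because they rose and carry the motifs in different arrangements, and Bub3 because it was not called. Nusap1, Nuf2, Birc5, Mad2l1, Ndc80 and Anln were also called higher, and neither motif was found in their windows. The windows are chr9:70421555-70421704 on the reverse strand, chr4:118437344-118437493 on the reverse strand, chr19:37376232-37376381 on the forward strand, chr11:99024190-99024339 on the reverse strand and chr7:131560220-131560369 on the forward strand.
Ccnb2: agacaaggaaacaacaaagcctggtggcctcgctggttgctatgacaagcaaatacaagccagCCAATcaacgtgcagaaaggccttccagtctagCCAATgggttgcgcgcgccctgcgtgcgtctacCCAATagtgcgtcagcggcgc
Cdc20: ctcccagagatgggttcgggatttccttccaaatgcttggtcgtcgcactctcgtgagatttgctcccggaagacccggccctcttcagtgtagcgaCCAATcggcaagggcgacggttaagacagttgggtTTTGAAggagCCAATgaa
Kif11: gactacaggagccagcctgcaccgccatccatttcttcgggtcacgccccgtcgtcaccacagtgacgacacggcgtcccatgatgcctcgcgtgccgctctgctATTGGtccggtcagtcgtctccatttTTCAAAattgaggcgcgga
Top2a: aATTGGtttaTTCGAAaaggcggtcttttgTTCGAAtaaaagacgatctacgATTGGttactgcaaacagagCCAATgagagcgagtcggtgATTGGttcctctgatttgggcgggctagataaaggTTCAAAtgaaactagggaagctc
Bub3: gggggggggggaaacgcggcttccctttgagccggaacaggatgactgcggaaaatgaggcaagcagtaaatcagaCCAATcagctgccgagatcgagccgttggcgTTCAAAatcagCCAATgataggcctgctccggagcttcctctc
In Ccnb2, 3 CCAAT boxes in the same orientation began 87, 54 and 21 bases before the start. The only match to the CHR letters in the bases searched for Ccnb2 lay upstream of those shown. In Cdc20, a CHR at 18 bases lay between CCAAT boxes at 53 and 8 bases. Kif11 had an inverted CCAAT box at 45 bases and an inverted CHR at 19 bases. Top2a had 4 CCAAT boxes and 3 CHRs within these 150 bases. Bub3 had CCAAT boxes at 74 and 32 bases and an inverted CHR at 43 bases, so a member that was not called carried the same motifs. For Pttg1, the other member not called, the start of the promoter window lay 1482 bases inside the gene's RefSeq span in mm10. Its window is therefore not shown. The starts of Aurka, Ect2, Kif2c and Ncapd2 also lay over 100 bases inside, and all 5 were kept in the shares above.

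Of the 44 members, 42 were higher in the GapmeR samples at an adjusted p under 0.05, beside 25.4% of all genes tested, and 0 were lower, beside 20.0%, with DESeq2 and limma-voom also giving 42 and 0. At an unadjusted p under 0.05, the number of lower members was also 0. The median log2 fold change of the members was 0.57, or 1.48-fold, with quartiles of 0.46 and 0.68, against a median of 0.03 over all genes tested. The changes were moderate in size: no member reached 2-fold, which 13.4% of the genes tested did as higher calls, and 20 members were at least 1.5-fold higher and called, beside 17.8% of all genes tested. In 42 members all 4 GapmeR samples lay above both controls, beside 31.9% of all genes tested. The highest adjusted p among the called members was 0.0179, and an exact two-sided permutation test of single members, 4 samples against 2, gave 0.0667, the smallest p it allows, in 38 of the 44. Summed over the members, the levels were 2062, 2205, 2009 and 2242 CPM in GapmeR 1 to 4 and 1635 and 1449 CPM in Negative Control 1 and 2. With library size as the only scaling, the median of all genes moved from 0.03 to 0.17 and that of the members from 0.57 to 0.72.

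**Figure D1:**
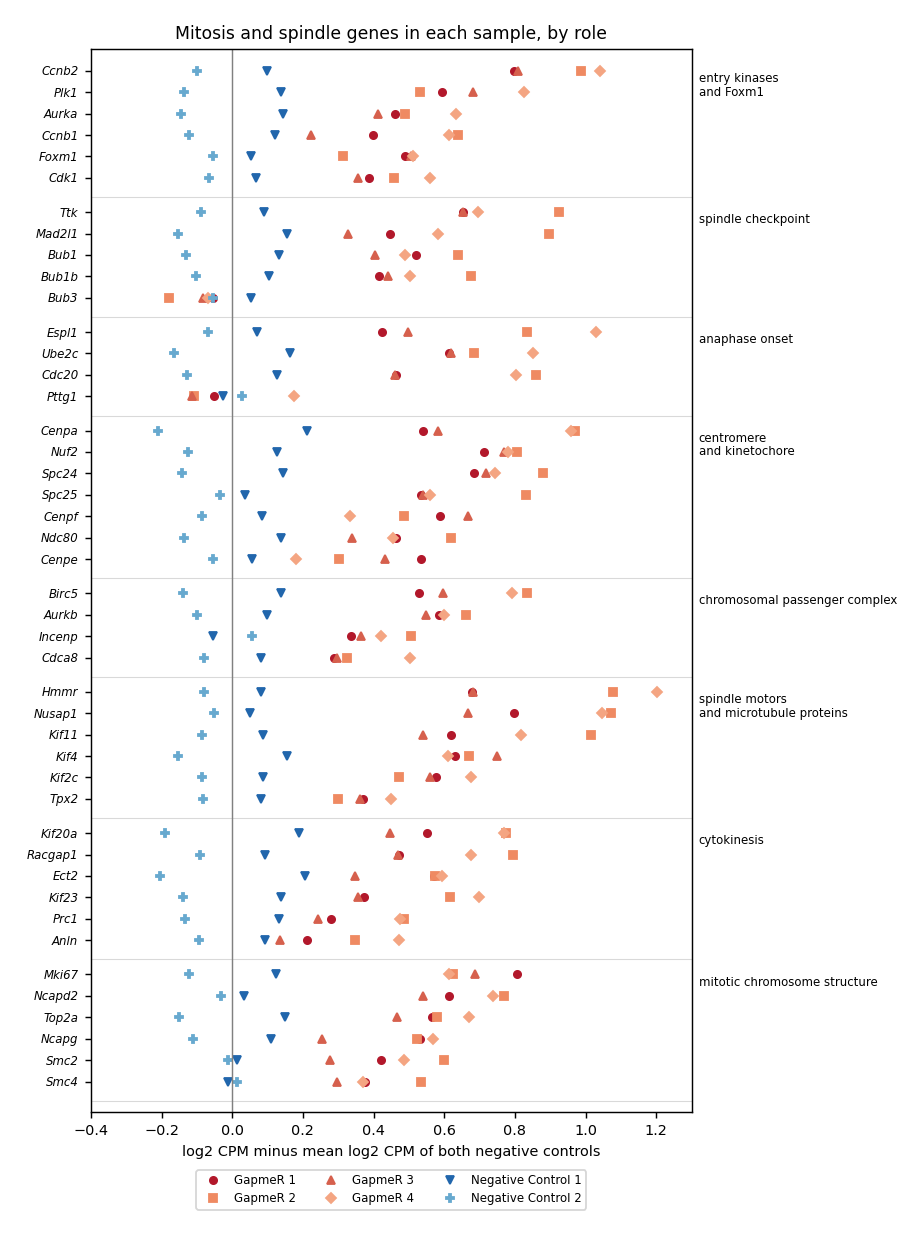
Level of each of the 44 genes in each sample, as log2 CPM minus the mean log2 CPM of both negative controls, in groups by role; each symbol is 1 sample. In 42 genes the 4 GapmeR samples lie to the right of both controls, and in Bub3 and Pttg1 they do not.

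Among the 6 genes of mitotic entry, all 6 were higher, with a median log2 fold change of 0.49. Ccnb2 (ENSMUSG00000032218, chr9:70407689-70421554 in mm10), which encodes cyclin B2, rose most in this group. It was read at 33.8, 38.5, 34.04 and 39.99 CPM in GapmeR 1 to 4 and at 20.8 and 18.1 CPM in Negative Control 1 and 2, 1.88-fold by the group means, with a log2 fold change of 0.91 ± 0.10 (SE) and an adjusted p of 1.43e-06. The lowest GapmeR sample was 1.62 times the highest control, the widest gap of any member. Ccnb1, which encodes the other main cyclin partner of Cdk1, was at 49.4, 58.4, 43.7 and 57.3 CPM in the GapmeR samples and at 40.8 and 34.5 CPM in the controls, 0.47 ± 0.12 on the log2 scale with an adjusted p of 0.00498. GapmeR 3 stood close to Negative Control 1 in this gene, and without Negative Control 2 its adjusted p was 0.0782. Cdk1, the kinase that both cyclins activate, ran from 98.9 to 114 CPM against 73.7 and 80.9 CPM, 0.44 ± 0.08 on the log2 scale (adjusted p = 2.68e-04). Plk1, a Polo-like kinase that acts at centrosomes and kinetochores, was at 56.7, 54.2, 60.2 and 66.5 CPM against 41.3 and 34.1 CPM, 0.66 ± 0.10 on the log2 scale (adjusted p = 5.69e-05). Aurka, the Aurora kinase of the spindle poles, ran from 42.1 to 49.03 CPM against 28.6 and 34.9 CPM (0.50 ± 0.09, adjusted p = 4.07e-04). Foxm1, the forkhead factor that activates many genes of this set, was at 84.2, 74.5, 85.2 and 85.5 CPM against 62.2 and 57.8 CPM, with a log2 fold change of 0.46 ± 0.08 and an adjusted p of 1.91e-04. The GapmeR samples and the controls did not overlap in any of these 6 genes.

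The spindle checkpoint genes split, with 4 of 5 higher and Bub3 not called. Ttk, a kinase that recruits the other checkpoint proteins to unattached kinetochores, changed most, from 6.74 and 7.63 CPM in the controls to 11.3 to 13.6 CPM in the GapmeR samples, 0.74 ± 0.12 on the log2 scale (adjusted p = 1.39e-04). Bub1 and Bub1b, which encode a checkpoint kinase and its relative BubR1, had log2 fold changes of 0.51 ± 0.10 (adjusted p = 6.81e-04) and 0.51 ± 0.10 (adjusted p = 3.83e-04). Bub1 was read at 21.5, 23.3, 19.9 and 21.05 CPM against 16.4 and 13.7 CPM, and Bub1b at 29.98, 35.9, 30.5 and 31.8 CPM against 24.1 and 20.9 CPM. Mad2l1, which encodes the inhibitor of Cdc20 made at unattached kinetochores, was at 34.2, 46.7, 31.5 and 37.6 CPM against 27.9 and 22.5 CPM, with GapmeR 2 the highest. Its log2 fold change was 0.58 ± 0.16 with an adjusted p of 0.0155, and without Negative Control 2 the adjusted p was 0.111. Bub3, the WD-repeat partner that carries Bub1 and BubR1 to kinetochores, was at 182, 167, 178 and 179.9 CPM in the GapmeR samples and at 196 and 182 CPM in the controls. All 4 GapmeR samples lay below both controls, but GapmeR 1 (181.793 CPM) and Negative Control 2 (181.805 CPM) were nearly equal. The fitted log2 fold change was -0.10 ± 0.07, with an adjusted p of 0.292. Over the alternative analyses the log2 fold change of Bub3 ran from -0.13 to 0.05, so its sign depends on the scaling. By read counts, Bub3 was the most abundant of the members, with a mean of 181 CPM.

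Of the 4 genes of anaphase onset, 3 were higher and Pttg1 was not called. Cdc20, which activates the anaphase-promoting complex, was read at 59.8, 78.5, 59.6 and 75.6 CPM in the GapmeR samples and at 47.3 and 39.6 CPM in the controls, with GapmeR 2 and 4 above GapmeR 1 and 3. Its log2 fold change was 0.66 ± 0.13 with an adjusted p of 0.00229. Ube2c, the ubiquitin-conjugating enzyme of that complex, was at 90.8, 95.4, 91.2 and 107 CPM against 66.5 and 52.96 CPM, 0.69 ± 0.10 on the log2 scale (adjusted p = 3.75e-05). Espl1, which encodes separase, the protease that cleaves cohesin, was at 15.3, 20.4, 16.2 and 23.4 CPM against 12.01 and 10.9 CPM, with an SE among the largest of the members (0.72 ± 0.16, adjusted p = 0.00363). Without Negative Control 2 the adjusted p of Espl1 was 0.0516. Pttg1, which encodes securin, the inhibitor of separase, was at 25.2, 24.2, 24.2 and 29.5 CPM in the GapmeR samples and at 25.7 and 26.7 CPM in the controls. Both controls lay within the range of the GapmeR samples, the log2 fold change was -0.02 ± 0.09, and the adjusted p was 0.872. Over the alternatives the log2 fold change of Pttg1 ran from -0.09 to 0.13, so it too changed sign with the scaling. Separase and its inhibitor had unequal changes in these libraries, and the difference between them was not tested.

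All 7 centromere and kinetochore genes were higher, with a median log2 fold change of 0.62. Cenpa, the histone H3 variant that marks centromeres, was at 26.6, 35.8, 27.4 and 35.5 CPM in the GapmeR samples and at 21.2 and 15.8 CPM in the controls, 0.77 ± 0.16 on the log2 scale (adjusted p = 0.00402). GapmeR 2 and 4 were the higher samples and the controls were themselves apart, and its SE was the largest of the members. The 4 subunits of the NDC80 complex, the part of the kinetochore that holds microtubules, gave log2 fold changes of 0.76 ± 0.10 for Nuf2 (adjusted p = 1.46e-05), 0.75 ± 0.10 for Spc24 (adjusted p = 2.16e-05), 0.62 ± 0.11 for Spc25 (adjusted p = 2.65e-04) and 0.47 ± 0.12 for Ndc80 (adjusted p = 0.00427). Nuf2 was the tightest among the GapmeR samples, at 17.6, 18.8, 18.3 and 18.5 CPM against 11.8 and 9.87 CPM. Spc24 was at 21.1, 24.1, 21.6 and 21.9 CPM against 14.5 and 11.9 CPM. Ndc80 was at 12.5, 13.9, 11.4 and 12.4 CPM against 9.93 and 8.21 CPM, and its adjusted p without Negative Control 2 was 0.093. Spc25 ran from 15.5 to 19.03 CPM against 10.4 and 10.95 CPM, with GapmeR 2 the highest. Cenpe, a kinesin that moves chromosomes to the metaphase plate, and Cenpf, a large protein of the outer kinetochore, are, with Mki67, the 3 members in which GapmeR 1 and 3 were both above GapmeR 2 and 4. Cenpe was at 34.6, 29.5, 32.3 and 27.1 CPM against 24.9 and 23.03 CPM and Cenpf at 21.5, 20.1, 22.8 and 18.05 CPM against 15.2 and 13.5 CPM. Their log2 fold changes were 0.37 ± 0.10 (adjusted p = 0.0063) and 0.52 ± 0.11 (adjusted p = 8.44e-04), and that of Cenpe had an adjusted p of 0.0821 without Negative Control 2.

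The chromosomal passenger complex, which corrects wrong attachments and later moves to the midzone, was higher in all 4 subunits. Its kinase Aurkb was at 38.1, 40.2, 37.2 and 38.5 CPM in the GapmeR samples and at 27.2 and 23.7 CPM in the controls, 0.60 ± 0.08 on the log2 scale (adjusted p = 2.33e-05). Birc5, which encodes survivin, was at 36.6, 45.2, 38.3 and 43.9 CPM against 27.9 and 23.03 CPM and had the largest change of the complex, 0.69 ± 0.11 (adjusted p = 7.85e-05). Incenp, the scaffold, was at 87.3, 98.2, 88.9 and 92.6 CPM against 66.6 and 71.8 CPM, 0.41 ± 0.08 (adjusted p = 3.65e-04), and is one of 3 members in which Negative Control 2 was the higher control. Cdca8, which encodes borealin, was at 35.8, 36.7, 35.98 and 41.6 CPM against 30.99 and 27.7 CPM, with GapmeR 4 the highest. Its log2 fold change was 0.35 ± 0.09 with an adjusted p of 0.00359, and of 0.0725 without Negative Control 2.

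Spindle motors and microtubule proteins had the highest median of the 8 roles, 0.71, and all 6 were higher. Hmmr, which encodes a spindle pole protein, had the largest log2 fold change of all members, 0.93 ± 0.16 (adjusted p = 2.77e-04). It was read at 10.5, 13.8, 10.5 and 15.1 CPM in the GapmeR samples and at 6.94 and 6.20 CPM in the controls, so GapmeR 4 and 2 were the higher GapmeR samples and both groups stayed apart. Nusap1, which bundles spindle microtubules, was at 15.1, 18.2, 13.8 and 17.9 CPM against 8.98 and 8.37 CPM, 0.91 ± 0.13 (adjusted p = 2.61e-05). Kif11, the kinesin that pushes the spindle poles apart, was at 26.2, 34.5, 24.9 and 30.1 CPM against 18.1 and 16.1 CPM, 0.76 ± 0.13 (adjusted p = 2.20e-04). Kif4, a kinesin of chromosome arms and the midzone, was at 22.6, 23.2, 24.6 and 22.3 CPM against 16.2 and 13.1 CPM, and Kif2c, a kinesin that takes microtubule ends apart, at 21.4, 19.9, 21.1 and 22.9 CPM against 15.2 and 13.5 CPM. Their log2 fold changes were 0.66 ± 0.10 (adjusted p = 5.80e-05) and 0.57 ± 0.10 (adjusted p = 1.59e-04), and the GapmeR samples lay close together in both. Tpx2, which activates Aurora A and seeds microtubules, had the smallest change of this role, at 66.9, 63.7, 66.5 and 70.6 CPM against 54.8 and 48.9 CPM, 0.37 ± 0.08 (adjusted p = 9.09e-04).

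The 6 cytokinesis genes were all higher, with a median log2 fold change of 0.51, and 3 of them lost their call without Negative Control 2. Kif23 and Racgap1 encode the subunits of centralspindlin, which gathers at the midzone. Racgap1 was at 54.8, 68.5, 54.7 and 63.1 CPM against 42.1 and 37.1 CPM, 0.61 ± 0.10 (adjusted p = 1.53e-04), and Kif23 was at 41.02, 48.6, 40.6 and 51.5 CPM against 34.9 and 28.8 CPM, 0.51 ± 0.11 (adjusted p = 0.00188). Kif20a, a kinesin of the midzone, was at 23.5, 27.4, 21.8 and 27.3 CPM against 18.3 and 14.04 CPM, 0.63 ± 0.12 (adjusted p = 7.12e-04). In each of these kinesins and in Racgap1, GapmeR 2 and 4 were the higher samples. Ect2, the exchange factor that activates RhoA at the cleavage site, was at 20.7, 20.7, 17.7 and 21.05 CPM against 16.1 and 12.1 CPM, with GapmeR 3 the lowest, 0.51 ± 0.12 (adjusted p = 0.00201). Prc1, which crosslinks the antiparallel microtubules of the midzone, was at 54.6, 62.95, 53.2 and 62.5 CPM against 49.3 and 41.02 CPM, 0.37 ± 0.09 (adjusted p = 0.00498). Anln, which encodes the contractile ring scaffold anillin, had the smallest change of the called members, at 78.5, 86.3, 74.5 and 94.04 CPM against 72.3 and 63.5 CPM, 0.30 ± 0.09 (adjusted p = 0.0179). GapmeR 3 was 1.03 times Negative Control 1 in Anln, the narrowest gap of the members whose GapmeR samples all lay above both controls. Without Negative Control 2 the adjusted p was 0.0715 for Ect2, 0.113 for Prc1 and 0.197 for Anln.

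All 6 genes of mitotic chromosome structure were higher. Mki67, the surface protein of mitotic chromosomes known as Ki-67, was at 86.5, 76.3, 79.6 and 75.8 CPM in the GapmeR samples and at 53.9 and 45.5 CPM in the controls, 0.68 ± 0.09 (adjusted p = 8.84e-06), with GapmeR 1 the highest. Top2a, the topoisomerase that untangles sister DNA, was at 138, 139, 128 and 148 CPM against 103 and 83.8 CPM, 0.56 ± 0.09 (adjusted p = 8.06e-05). The condensin subunits were each called, and differences between them were not tested. Ncapd2, of condensin I, was at 61.6, 68.7, 58.6 and 67.3 CPM against 41.2 and 39.4 CPM, 0.67 ± 0.08 (adjusted p = 6.23e-06). Ncapg, of the same complex, was at 17.6, 17.5, 14.5 and 18.05 CPM against 13.1 and 11.3 CPM, with GapmeR 3 the lowest, 0.47 ± 0.11 (adjusted p = 0.00279), and an adjusted p of 0.0654 without Negative Control 2. The core ATPases Smc2 and Smc4, shared by both condensins, had nearly equal controls. Smc2 was at 49.6, 56.1, 44.9 and 51.9 CPM against 37.4 and 36.7 CPM, 0.45 ± 0.09 (adjusted p = 5.65e-04), and Smc4 at 87.5, 97.7, 82.95 and 87.3 CPM against 66.9 and 68.2 CPM, 0.40 ± 0.08 (adjusted p = 6.06e-04).

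The members moved together within each group as well as between the groups. Negative Control 1 was above Negative Control 2 in 41 of the 44 members, with a median log2 difference of 0.20, whereas it was the higher control in 48.2% of the 10142 genes with a mean of at least 5 CPM, with a median of -0.01. GapmeR 2 and 4 were both above GapmeR 1 and 3 in 30 members and both below them in 3, against 21.96% and 22.07% of those genes. Each sample's median member level, relative to the mean of the controls on the log2 scale, was 0.53, 0.63, 0.46 and 0.61 in GapmeR 1 to 4 and 0.10 and -0.10 in Negative Control 1 and 2. The difference between the controls was thus smaller than that between the groups, and it moved the sizes and some calls. Without Negative Control 2, 32 of the 44 members were called higher and the median log2 fold change was 0.47, and without Negative Control 1, 42 were called and the median was 0.70. The 10 calls lost without Negative Control 2 kept a positive log2 fold change, and their adjusted p-values ran from 0.0516 to 0.197.

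**Figure D2:**
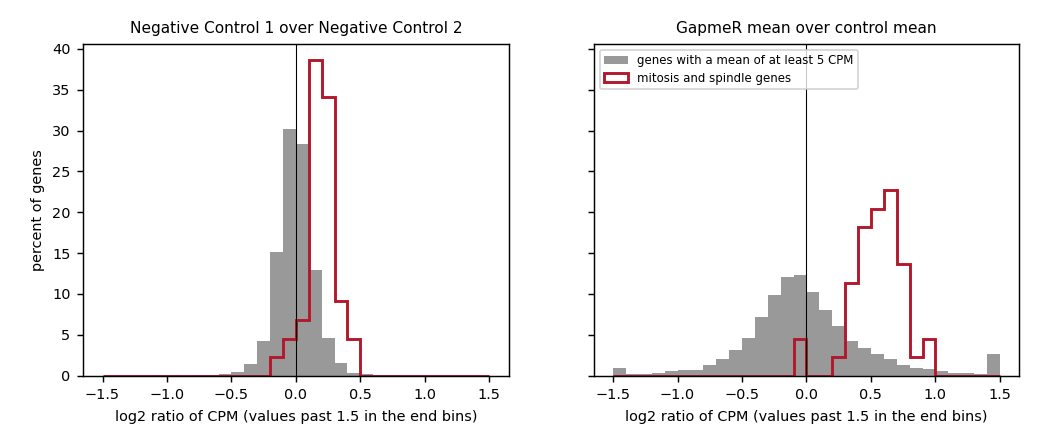
Distribution of the log2 ratio of CPM between both negative controls (left) and between the group means (right), in percent of genes per bin of 0.1, for the 44 members (red outline) and for the 10142 genes with a mean of at least 5 CPM (grey). Between the controls 41 of 44 members lie to the right of 0, with a median of 0.20, and between the groups all do but Bub3 and Pttg1.

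Per length of exon, the members' mean levels in the controls ran from 0.866 CPM per kb in Cenpf to 22.3 in Cdc20, with a median of 4.87. The length joins the exons of all annotated transcripts of a gene and can exceed that of any single transcript. The order by level therefore depends in part on the annotation. The order below Cdc20 was Ube2c at 18.4, Cdk1 at 13.3, Plk1 at 13.2 and Bub3 at 12.9 CPM per kb. The controls' values overlapped between Cdc20 and Ube2c and among Cdk1, Plk1 and Bub3. The least abundant after Cenpf were Hmmr at 1.14, Ttk at 1.17 and Espl1 at 1.20 CPM per kb. Across the 44 genes, which are not independent replicates, the log2 fold change had a Pearson r of -0.40 and a Spearman rho of -0.42 with the log2 level per kb in the controls, and both measures share the control libraries.

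**Figure D3:**
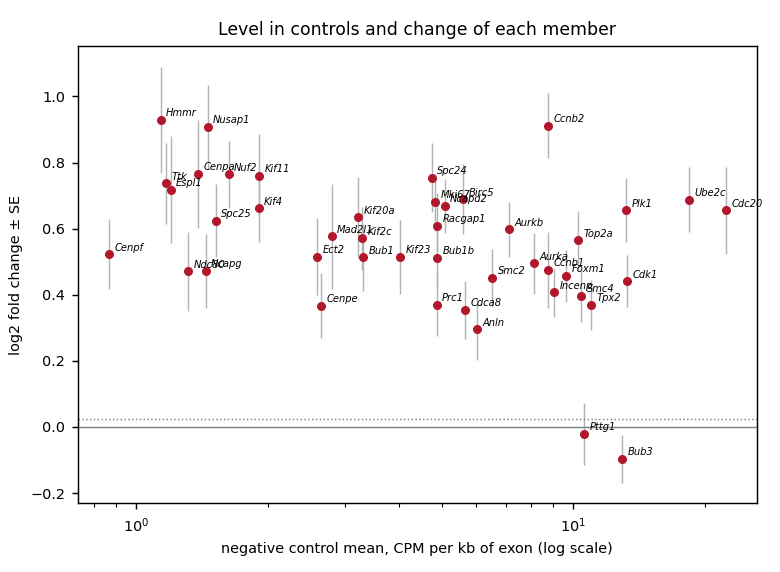
Mean level in the negative controls in CPM per kb of exon (log axis) against the log2 fold change of each member, with bars of 1 SE; the dotted line is the median of all genes tested, 0.03. Hmmr and Nusap1 combine a low level with a large change, and Ccnb2 has a large change at a middle level. The log2 fold changes of Bub3 and Pttg1, -0.10 and -0.02, lie below the dotted line.

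Other genes of the same pathways were counted from hand-written lists. Of 31 other kinetochore and centromere genes, 23 rose (74.2%) and 0 fell, beside 25.4% and 20.0% of all genes tested. Their median change was 0.52 on the log2 scale. Nsl1, of the MIS12 complex, had the largest called change, at 13.3, 13.7, 13.9 and 14.9 CPM against 7.70 and 5.17 CPM (1.12 ± 0.14, adjusted p = 7.91e-06), and Cenpt, which links centromeric chromatin to the NDC80 complex, the smallest, 0.24 ± 0.08 (adjusted p = 0.0286). Of 36 other spindle and centrosome genes, 28 were higher (77.8%) and 1 lower (2.78%), with a median of 0.49. Aspm, a spindle pole protein, had the largest called change, 1.14 ± 0.13 (adjusted p = 2.04e-06), and Numa1, which anchors microtubules at the poles and is also a nuclear matrix protein between divisions, was the 1 that fell, at 177, 147, 177 and 173 CPM against 230.3 and 232 CPM (-0.46 ± 0.08, adjusted p = 2.62e-04). Of 26 other genes of G2 and mitotic entry, 19 were higher (73.1%) and 0 lower, with a median of 0.52. Depdc1b, a protein of dividing cells, had the largest called change (1.15 ± 0.26, adjusted p = 0.00174) and Cks2, a small partner of cyclin-dependent kinases, the smallest (0.26 ± 0.08, adjusted p = 0.015). Ccna2, which encodes cyclin A2, was at 47.96, 54.02, 48.6 and 49.8 CPM against 37.1 and 30.9 CPM (0.56 ± 0.09, adjusted p = 7.50e-05). The phosphatase gene Cdc25c (0.55 ± 0.19, adjusted p = 0.0245) and the opposing kinase gene Wee1 (0.32 ± 0.08, adjusted p = 0.00365) were both higher, and Cdc25b, at 20.9, 18.1, 19.4 and 22.7 CPM against 18.8 and 15.8 CPM, was not called (0.23 ± 0.11, adjusted p = 0.0891).

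The lists of the anaphase-promoting complex, of cohesin and of the replication fork had lower medians than the members, as did the other related lists. These differences were not tested. Of 20 genes of the anaphase-promoting complex and its regulators, 6 rose (30%) and 3 fell (15%), near the 25.4% and 20.0% of all genes tested, and the median change was 0.06 on the log2 scale. The largest rise was in Fbxo5, which encodes the inhibitor Emi1 (0.70 ± 0.08, adjusted p = 4.36e-06). The largest fall was in the subunit gene Anapc16, at 38.5, 41.99, 37.98 and 42.8 CPM in the GapmeR samples and at 115 and 109 CPM in the controls (-1.47 ± 0.07, adjusted p = 1.29e-10). Its GapmeR samples were far below both controls, while Cdc20 and Ube2c, which work with the same complex, were higher. Of 16 cohesin and other condensin genes, 6 were higher (37.5%) and 1 lower (6.25%), beside 25.4% and 20.0% of all genes tested. Their median was 0.14. Ncapd3, a subunit of condensin II, had the largest rise (0.67 ± 0.11, adjusted p = 8.09e-05), and Nipbl, the cohesin loader, was the 1 that fell (-0.34 ± 0.08, adjusted p = 0.00213). Of 37 replication fork genes, which act in S phase, 26 were higher (70.3%), beside 25.4% of all genes tested, with a median of 0.35. Mcm10, a replication initiation factor, had the largest rise (1.07 ± 0.09, adjusted p = 1.68e-07).

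**Figure D4:**
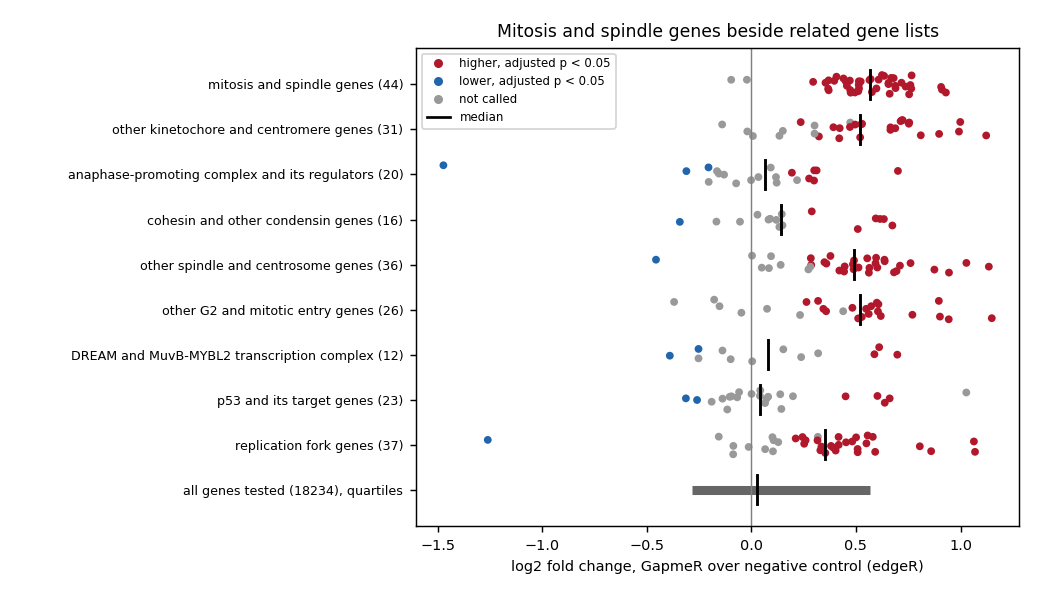
Log2 fold change of the 44 members and of 8 related gene lists, with each gene as a point colored by its call, black bars for medians, numbers tested in parentheses, and a grey bar from the lower to the upper quartile of all 18234 genes tested. The members have a median of 0.57, and the medians of the lists run from 0.04 for p53 and its target genes to 0.52.

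Of the 12 genes of the DREAM and MuvB-MYBL2 complexes, which regulate many of the members, 3 rose (25%) and 2 fell (16.7%), near the 25.4% and 20.0% of all genes tested, and the median change was 0.08 on the log2 scale. Mybl2, which joins MuvB to activate G2 and M genes, was at 28.95, 29.2, 27.4 and 31.5 CPM against 19.2 and 16.9 CPM (0.70 ± 0.09, adjusted p = 1.28e-05), and Tfdp1, a partner of E2F factors, was also higher (0.61 ± 0.10, adjusted p = 1.84e-04). The pocket protein genes differed in sign, with Rbl2 (p130) higher at 10.1, 11.1, 9.51 and 12.9 CPM against 7.56 and 6.99 CPM (0.59 ± 0.13, adjusted p = 0.00212) and Rbl1 (p107) lower at 24.2, 26.9, 24.8 and 25.5 CPM against 31.4 and 29.1 CPM (-0.25 ± 0.08, adjusted p = 0.0183). E2f5 was the other that fell (-0.39 ± 0.11, adjusted p = 0.0105). The MuvB core genes were not called, with log2 fold changes of -0.10 ± 0.12 for Lin9, -0.14 ± 0.13 for Lin37, -0.25 ± 0.14 for Lin52, 0.24 ± 0.11 for Lin54 and 0.15 ± 0.08 for Rbbp4, and neither were E2f4 at 0.00 ± 0.08 and Tfdp2 at 0.32 ± 0.13. Of 23 genes tested among p53 and its targets, 4 were higher (17.4%) and 2 lower (8.7%), with a median of 0.04. Both shares were below the 25.4% and 20.0% of all genes tested. Trp53 itself (0.04 ± 0.09, adjusted p = 0.726) and Cdkn1a, which encodes the kinase inhibitor p21 (-0.12 ± 0.08, adjusted p = 0.236), were not called. Mdm2, the ubiquitin ligase of p53, was at 566, 632, 549.8 and 652 CPM against 377 and 395 CPM (0.64 ± 0.09, adjusted p = 1.84e-05). Gadd45a, a stress protein, had the largest called rise of the list (0.66 ± 0.10, adjusted p = 1.05e-04), and Trp53inp1, a p53 cofactor, the largest fall (-0.31 ± 0.09, adjusted p = 0.0128).

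Outside these lists, the genes whose log2 CPM followed the members' mean profile most closely over the 6 samples were Lipt1, Edrf1, Pms2, Pex10 and Mutyh, with Pearson r of 0.998 to 0.999, as a description of 6 samples that fall into 2 groups. Pms2, which encodes a mismatch repair protein, was at 27.8, 31.1, 25.6 and 31.5 CPM in the GapmeR samples and at 15.8 and 12.6 CPM in the controls. Mutyh, which encodes a DNA glycosylase, was at 4.54, 5.34, 4.00 and 5.20 CPM against 2.45 and 1.69 CPM. Both were chosen for this likeness, so their order among the samples is no further result.

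Markers of other cell types were present at low summed levels beside the endothelial ones, and most of those tested were not called. The 10 macrophage markers summed to 224, 205, 342 and 376 CPM in GapmeR 1 to 4 and to 174 and 170.4 CPM in the controls, with 3 of 10 called higher, beside 25.4% of all genes tested. The 11 fibroblast and mural markers summed to 24.6, 23.7, 102 and 30.7 CPM against 17.6 and 18.6 CPM, with 1 of 11 called higher. That marker was Myh11, at 5.37, 5.39, 5.93 and 5.85 CPM in GapmeR 1 to 4 and 0.365 and 0.251 CPM in the controls. Its log2 fold change was 4.19 ± 0.24. GapmeR 3 stood apart in the fibroblast and mural sum. Without GapmeR 3, 42 members were called higher, with a median log2 fold change of 0.61. The 5 epithelial markers summed to 1.12 to 1.39 CPM in the GapmeR samples and to 0.402 and 0.689 CPM in the controls. Of these, 2 of the 3 tested were called higher, and 3 of the 5 had at most 10 counts in each sample. The macrophage sums were highest in GapmeR 3 and 4, and those of GapmeR 1 and 2 also lay above both controls. The members were highest in GapmeR 2 and 4. Without GapmeR 3 and 4, 42 members were called higher, with a median log2 fold change of 0.59. That fit still compares samples that differ in their macrophage sums. No macrophage or fibroblast marker was at 0 in every sample, and the part of these cell types in the members' change was not tested.

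Where genes overlap, reads can be shared. By the GENCODE annotation of GRCm39, 9 members share at least 10% of their exon bases with other genes, summed over these genes. Among them are Kif20a with Cdc23 (54.75%), Spc25 with Nostrin (52.52%), Aurka with Fam210b (25.19%) and Ncapg with Lcorl (25.01%), on the opposite strand in each of these pairs. Whether reads were counted by strand is not given in the sources used here, so these levels are uncertain. All 9 were called higher, as were 33 of the other 35. Fam210b, Lcorl and Cdc23 were not called, and Nostrin, at a mean of 0.56 CPM, was lower. Annotated copies of Ccnb1, Ccnb2 and Kif4 had 0 to 11 counts in every sample.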

How the data were processed

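RNA of 6 bEND.3 samples was read by bulk sequencing after ribosomal RNA depletion. The authors deposited raw counts per gene; per the labels, reads were trimmed with Trimmomatic 0.36 and aligned with STAR 2.5.2b to mm10 (GRCm38), and Subread 1.5.2 is named. The strand setting is not given in the sources used here. A further column of counts (1), named like those of the controls, matched no sample label and was not used; the study's methods give 4 samples in each group, and the 2 controls with a label were analysed here. The 18234 genes that reached 5 counts in 2 or more samples were fitted with edgeR 4.0.16 (R 4.3.3; TMM scaling, robust quasi-likelihood test, Benjamini-Hochberg adjustment over all genes, threshold 0.05, no covariate); the biological coefficient of variation was 8.42%. Fold changes are GapmeR over negative control. CPM are counts scaled by library size and TMM factor. Levels per kb divide them by the summed length of the exons of all annotated transcripts of the gene in GENCODE vM39, with shared bases counted once. Replicates differed by more than counting noise, with chi-square per degree of freedom of 5.87 to 28.0.

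The members and gene lists were chosen with earlier results of these data known. The text names every member, the called genes with the highest and lowest log2 fold change in each pathway list (mean of at least 1 CPM), every gene of the pathway lists of 15 or fewer, and a few regulators; 1 result that this rule selects is not reported here. Alternatives were DESeq2 1.42.0 (size factors in edgeR, and its Wald test), limma-voom (limma 3.58.1), library size only, non-robust dispersions, other filters and thresholds, a replicate block, and each sample left out; the alternatives without GapmeR 3 and 4 and without overlapping members were chosen after seeing the data. The fitting code was tested on simulated data.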

Additional observations from a re-analysis of the deposited data

Results flagged for a closer look

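In 6 of the 44 genes, 1 of the 4 GapmeR samples stood apart from the other 3, with a gap to its nearest neighbor that took up more of the group's range than Dixon's 95% critical value. Chance gives this in about 1 of 20 groups. GapmeR 2 was the sample in Foxm1 (gap over range 0.879), where it was lowest at 74.5 CPM, and in Ttk (0.857) and Spc25 (0.926), where it was highest at 13.6 and 19.03 CPM. GapmeR 4 was highest in Cdca8 (0.839) at 41.6 CPM. GapmeR 3 was lowest in Ect2 (0.891) at 17.7 CPM and in Ncapg (0.843) at 14.5 CPM. All 6 genes stayed called higher with any single GapmeR sample left out.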

How the results depend on the processing

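Over 15 alternative analyses of each of the 44 genes, 650 of 660 values stayed on the same side of the adjusted p threshold, and the other 10 are the calls lost without Negative Control 2. A threshold of 1.5-fold left 20 members called higher, with either the adjusted or the unadjusted p, and cut the genes called lower among all genes to 1390 and 1565. With library size as the only scaling, 2135 genes were lower and the members' median was 0.72, with 0.17 for all genes. Without any filter the median of all genes was 0.16. With 1 sample left out at a time, members called higher ranged from 32 to 42, their median log2 fold change from 0.47 to 0.70, and the genes called lower from 1930 to 3949. Without Negative Control 1 or 2, the lone control is assumed to vary like the GapmeR samples. The labels give GapmeR and control samples the same numbers, but the deviations of same-numbered samples correlated at -0.11 and 0.17 over 8870 genes, so the numbers were not taken as pairs; with a replicate block over GapmeR 1 and 2 and both controls, 42 members were higher and the median was 0.59. The 2 controls limit the precision of every fold change, and the cause of the 10 lost calls was not tested.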
